A study of Rattus norvegicus with 2 samples.

Results

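The genes described here are 9 matrix proteases and protease inhibitors, taken by their symbols from the 25399 genes of a single-cell RNA-seq experiment on rat optic nerve. They were the matrix metalloproteinases Mmp2 (ENSRNOG00000016695), Mmp3 (ENSRNOG00000032626), Mmp11 (ENSRNOG00000028344) and Mmp14 (ENSRNOG00000010947), the tissue inhibitors Timp1 (ENSRNOG00000010208), Timp2 (ENSRNOG00000003148) and Timp3 (ENSRNOG00000004303), and the secreted proteases Adamts1 (ENSRNOG00000001607) and Adamts5 (ENSRNOG00000057794). At least 1 transcript molecule was found for 8 of the 9, and 7 had at least 20 over all cells. The WT library came from Sprague Dawley rats and the Nuc1 library from rats that carry a spontaneous insertion in Cryba1, the gene of βA3/A1-crystallin. There was 1 library per genotype, both labelled with an age of postnatal day 7, and the study's methods describe the material as mixed primary glial cultures from the optic nerve, with astrocyte cultures started from pups aged 2 days. The study compared WT with Nuc1 cells. Neither the number of animals behind a library nor the time in culture is given in the sources used here, and a difference between the libraries cannot be told apart from a difference between genotypes.

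Matrix metalloproteinases cut collagens, proteoglycans and other proteins outside the cell, and are made as inactive precursors. Tissue inhibitors of metalloproteinases (TIMPs) occupy the active site of these enzymes, while a complex of Mmp14 and Timp2 on the cell surface also holds the precursor of Mmp2 so that it can be activated. Adamts enzymes cut large proteoglycans such as versican and aggrecan, and of the TIMPs it is Timp3, which stays bound to the matrix, that inhibits them best. In the optic nerve, fibroblasts of the sheaths and septa, astrocytes and microglia are all known sources of matrix or of the enzymes that remodel it.

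Each UMI (unique molecular identifier) tags a single captured transcript. The UMIs of a gene were added up over all cells that share a cell group and a library, and divided by the UMIs of all genes in those cells, giving a level in counts per 1000000 UMIs (CPM). Levels below are in CPM unless another unit is named. The kit captures the 3′ end of each transcript, so levels are not divided by gene length, and capture differs between genes. The libraries held 34517542 (WT) and 35794685 (Nuc1) UMIs, with 1961 and 1780 cells kept. Cells fell into 10 clusters, of which 5 were collagen-rich, meaning over 5000 CPM of Col1a1, Col1a2, Col3a1, Dcn and Lum together in both libraries. The collagen-rich clusters are called here by 2 of their leading genes or, in 1 case, by division genes, namely the Ccn3 and Rspo3 cells (584 WT and 342 Nuc1 cells), the Actg2 and Penk cells (580 and 212), the Cldn11 and Thbd cells (381 and 260), the Inmt and Cyp26b1 cells (53 and 367) and the dividing cells (144 and 78). The others were astrocyte-like (108 and 357), motile-cilia (15 and 103), oligodendrocyte-like (49 and 10) and macrophage-like (25 and 26) cells, and Ttr and Gldn cells (22 and 25), which were not named as a type. Astrocyte-like cells had all 9 astrocyte markers at 40970 (WT) and 51470 (Nuc1) CPM in sum, against 3.88 and 5.37 for 12 macrophage markers and 2214 and 1035 for the fibroblast markers. The material was labelled as optic nerve and cultured for glia, yet 1742 of the 1961 WT cells and 1259 of the 1780 Nuc1 cells lay in collagen-rich clusters. The limit applies to clusters, and the Nuc1 Ccn3 and Rspo3 cells (5221 CPM) and Nuc1 dividing cells (5288) were just above it. In a setting without clustering, 1707 WT and 869 Nuc1 cells were classed as collagen-rich. Intervals are 95% and cover counting error alone, and no p-value is given because 1 library per genotype allows none. Cryba1 itself had 0 UMIs in both libraries, so it did not check the labels.

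Promoter sequences are shown for the 3 TIMPs and Adamts1, whose levels were lower in the Nuc1 library in several cell groups, and for Mmp3, which was next to absent. Each is the 250 bases before the gene's start, 5′ to 3′ on the gene's own strand, from the RefSeq promoter table of build GRCr8, which matched 6 of the 9 genes. Mmp2, Mmp14 and Adamts5 had no entry. Capitals mark matches to 4 promoter motifs, searched for on both strands. The AP-1 site, bound by Fos and Jun proteins, was searched as TGAGTCA. The TATA box was searched as TATAAA. The GC box was searched as GGGCGG. The last was the CCAAT box, by those 5 letters. A match on the other strand reads CCGCCC for the GC box and ATTGG for the CCAAT box, and the matches shown did not overlap each other.
Timp1, chrX:3771123-3771372, minus strand: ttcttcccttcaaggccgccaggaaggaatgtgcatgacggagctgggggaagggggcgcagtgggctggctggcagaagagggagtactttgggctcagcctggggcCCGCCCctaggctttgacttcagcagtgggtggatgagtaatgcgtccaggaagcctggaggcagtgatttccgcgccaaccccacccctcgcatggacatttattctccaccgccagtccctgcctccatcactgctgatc
Timp2, chr10:104089215-104089464, minus strand: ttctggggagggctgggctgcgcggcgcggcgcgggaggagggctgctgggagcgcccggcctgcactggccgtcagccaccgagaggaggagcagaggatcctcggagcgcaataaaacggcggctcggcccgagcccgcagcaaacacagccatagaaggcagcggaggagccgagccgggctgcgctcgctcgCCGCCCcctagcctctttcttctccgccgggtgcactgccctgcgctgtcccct
Timp3, chr7:19459559-19459808, minus strand: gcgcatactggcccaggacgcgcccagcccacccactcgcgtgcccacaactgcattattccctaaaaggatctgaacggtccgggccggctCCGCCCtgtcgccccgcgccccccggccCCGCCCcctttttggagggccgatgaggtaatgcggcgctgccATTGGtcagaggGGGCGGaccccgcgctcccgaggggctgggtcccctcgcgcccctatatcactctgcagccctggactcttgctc
Adamts1, chr11:38427385-38427634, minus strand: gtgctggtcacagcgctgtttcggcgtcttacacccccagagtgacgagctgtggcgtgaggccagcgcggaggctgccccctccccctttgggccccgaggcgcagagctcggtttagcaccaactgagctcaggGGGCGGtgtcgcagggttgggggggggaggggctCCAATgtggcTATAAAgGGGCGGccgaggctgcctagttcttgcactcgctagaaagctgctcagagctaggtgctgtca
Mmp3, chr8:12925031-12925280, plus strand: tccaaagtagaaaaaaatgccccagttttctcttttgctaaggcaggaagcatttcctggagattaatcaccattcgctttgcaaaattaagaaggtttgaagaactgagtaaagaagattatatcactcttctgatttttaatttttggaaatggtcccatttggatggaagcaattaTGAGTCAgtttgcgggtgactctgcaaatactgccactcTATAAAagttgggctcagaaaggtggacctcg
The Mmp3 window alone among the 6 held the AP-1 letters, 71 bases before the start, with a TATA box 32 bases before it. Over all 33469 promoters of the table, 4.05% held the AP-1 letters in such a window, 12.9% the TATA box, 30.5% the GC box and 34.0% the CCAAT box. The TIMP windows held no TATA box by these letters, Timp3 held 3 GC boxes and 1 CCAAT box, and Timp1 and Timp2 held 1 GC box each. In Adamts1, a TATA box stood 70 bases before the start between a CCAAT box at 80 and a GC box at 63. Such a match describes the letters and is not shown to be a site in these cells.

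The 2 stromelysins were at or near 0 at this depth. Mmp11, or stromelysin-3, had 0 UMIs in every cell group of both libraries, which allows up to 0.0887 CPM in all WT cells and 0.0866 in all Nuc1 cells. Mmp3, or stromelysin-1, had 0 UMIs in WT cells and 1 UMI in an Actg2 and Penk cell of the Nuc1 library. No ratio was formed for either gene. The other 7 genes are given in the plot of levels by cell group.

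**Figure D1:**
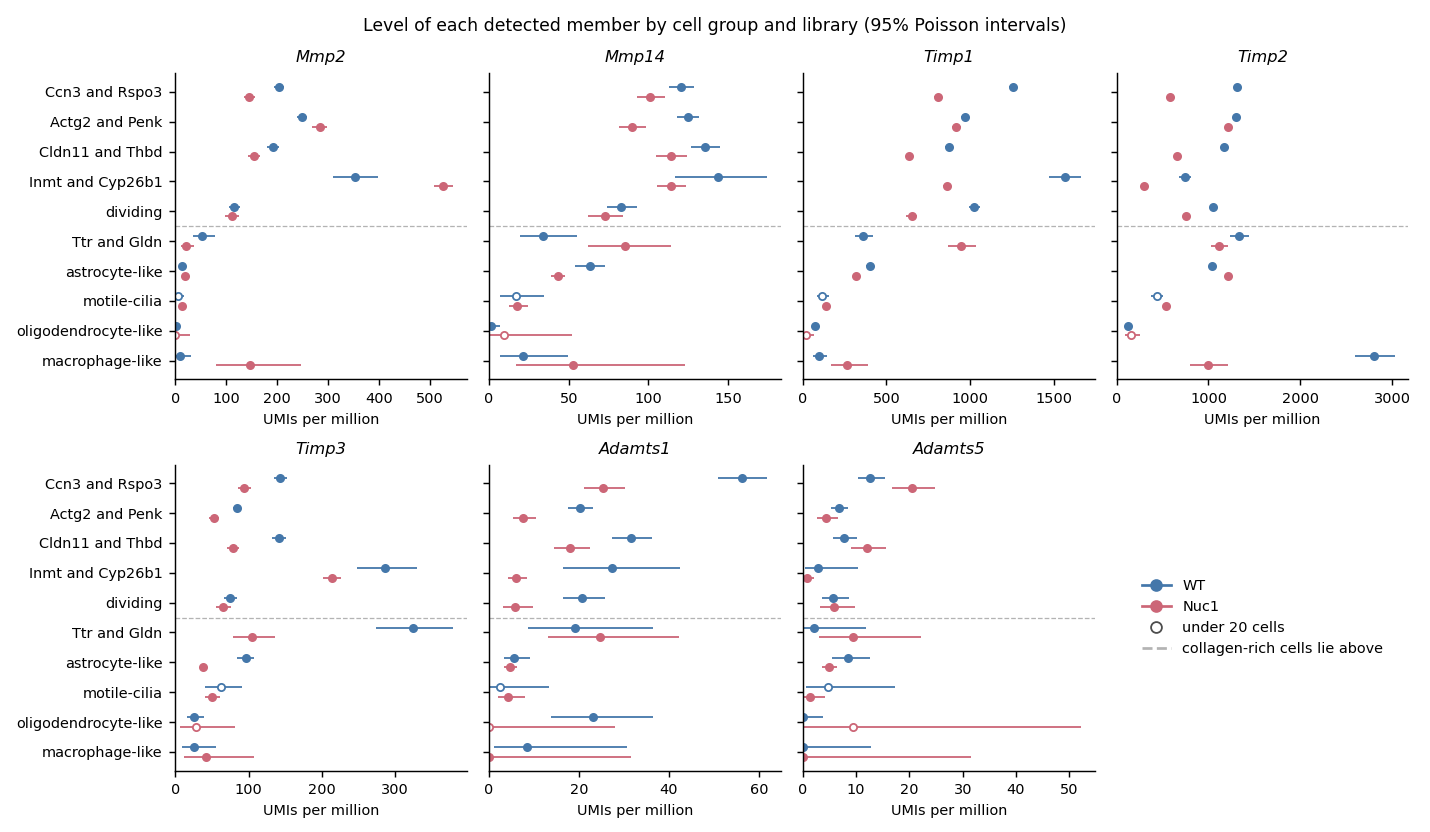
CPM (x axis, linear, its range differing between panels) of the 7 genes with at least 20 UMIs, in 10 cell groups (y axis), with WT in blue, Nuc1 in red, bars for 95% Poisson intervals and open points for groups under 20 cells in that library. Mmp2 peaks in the Inmt and Cyp26b1 cells at 352 (WT) and 526 (Nuc1), where Timp2 is low at 746 and 297, and Timp2 peaks in WT macrophage-like cells at 2807.

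Collagen-rich cells held the highest level of 6 of the 7 detected genes with the libraries pooled, and of 5 to 7 over the other settings tried. The exception was Timp2, highest in macrophage-like cells. Within a library the exceptions differed. In WT cells they were Timp2, and Timp3 at 324 in the Ttr and Gldn cells (interval 274 to 380) against 287 in the Inmt and Cyp26b1 cells (249 to 330). These 2 intervals overlapped. Without the cell with most Timp3 UMIs in each group the levels were 261 and 231.5. In Nuc1 cells it was Timp1, at 948.5 in the Ttr and Gldn cells (interval 867 to 1035.5) against 917 in the Actg2 and Penk cells (890 to 944). These intervals overlapped, and 1 Ttr and Gldn cell held 151 of the 499 UMIs. Without the cell with most Timp1 UMIs in each group the levels were 713 and 897, the other order. The clusters were made from genes that include these, so the order is a description. Clustering without the 9 genes and without 77 further genes of matrix proteolysis kept 1740 of the 1742 WT and 1259 of the 1259 Nuc1 collagen-rich cells in that class.

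Mmp2, or gelatinase A, which cuts denatured and basement membrane collagen, was highest in the Inmt and Cyp26b1 cells. Its WT level was 352 in the Inmt and Cyp26b1 cells, 249 in the Actg2 and Penk cells, 203 in the Ccn3 and Rspo3 cells, 191 in the Cldn11 and Thbd cells and 116 in the dividing cells. In the Nuc1 library these were 526, 283, 145, 154 and 111 in the same order. The Inmt and Cyp26b1 cells were thus highest and the dividing cells lowest of the 5 in both libraries, with no overlap of the library ranges at the top 2 places, while the Ccn3 and Rspo3 cells and the Cldn11 and Thbd cells overlapped. Of the Inmt and Cyp26b1 cells, 86.8% (WT) and 97.5% (Nuc1) had at least 1 Mmp2 UMI.

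In the astrocyte-like cells taken all together, Mmp2 was near the share at which the collagen genes themselves were found. Its level there was 14.1 in the WT library (40 UMIs, interval 10.1 to 19.2) and 19.1 in Nuc1 (174 UMIs, 16.4 to 22.1). That is 6.74% and 7.11% of the collagen-rich level of the same library, against 4.51% and 6.25% for the 5 collagen-rich marker genes together. When astrocyte-like cells with over 300 CPM of Col1a1, Col3a1, Dcn and Lum were left out, a step added after the data were seen, 91 WT and 295 Nuc1 cells remained, with Mmp2 at 6.49 and 6.30. The collagen marker genes fell by more, from 502 (WT) and 417 (Nuc1) to 87.4 and 21.0, so the likeness did not hold there. The step left cells out by the level of these genes, which lowers them by design. In WT oligodendrocyte-like cells, with a median of 12599 UMIs, 1 of 49 cells had a UMI of Mmp2, a share of 2.04%. The share in collagen-rich cells was 66.6% (WT) and 72.0% (Nuc1) at median depths of 13713.5 and 15169 UMIs, and 61.2% and 66.5% when each cell was thinned to 10000 UMIs.

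Mmp14, the membrane-bound activator of Mmp2, was more even. Its level in the 5 collagen-rich clusters lay between 83.1 and 143 for WT and between 72.7 and 114 for Nuc1, and the dividing cells were lowest in both. Neighbours in the order of the 4 others overlapped between libraries. Astrocyte-like cells had 63.1 (WT, 179 UMIs) and 43.0 (Nuc1, 392 UMIs), or 52.1% and 42.3% of the collagen-rich level, far above the share of the collagen genes found there. Without the cells rich in fibroblast genes the astrocyte-like levels were 60.1 and 40.6. WT oligodendrocyte-like cells held 1 Mmp14 UMI, or 1.28 CPM.

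Timp1 is a secreted inhibitor that is known to rise in reactive astrocytes and fibroblasts. It was found in 98.7% of collagen-rich cells in both libraries. Shares were also high in astrocyte-like cells, at 98.15% (WT) and 92.7% (Nuc1), and in Ttr and Gldn cells, at 95.45% and 96.0%. With each cell thinned to equal depth, the astrocyte-like shares were 89.6% and 84.1%, against 98.7% and 98.6% in collagen-rich cells. Timp1 was found less often in WT oligodendrocyte-like (32.7%), Nuc1 motile-cilia (59.2%) and macrophage-like cells (32.0% for WT and 53.85% for Nuc1). Its level in the WT library was 1257 in the Ccn3 and Rspo3 cells, 967 in the Actg2 and Penk cells, 873 in the Cldn11 and Thbd cells, 1567 in the Inmt and Cyp26b1 cells and 1026 in the dividing cells. The Nuc1 levels were 807, 917, 638, 860 and 652. Every collagen-rich cluster was lower in the Nuc1 library, the Actg2 and Penk cells by the least, and the order of the clusters differed between the libraries. Astrocyte-like cells had 403 (WT) and 318 (Nuc1), or 38.6% and 40.1% of the collagen-rich level, and WT oligodendrocyte-like cells had 70.6.

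Timp2, which both inhibits Mmp2 and takes part in its activation, stood at 1186.7 CPM over all WT cells and 817 over all Nuc1 cells. Its highest WT level was 2807 (659 UMIs, interval 2597 to 3030), in the 25 macrophage-like cells. The 26 Nuc1 macrophage-like cells had 989.7 (94 UMIs, 799.8 to 1211), and 1 cell held 54 of these 94 UMIs. They thus stood below the Nuc1 Actg2 and Penk cells (1215), astrocyte-like cells (1215) and Ttr and Gldn cells (1114). That group differed between the libraries in other ways, with a median of 2127.5 UMIs per cell against 7686 in the WT library, 4759 CPM of the 12 macrophage markers against 19980, and 1885 of the 5 collagen genes against 716. The part of these in the difference was not tested, and leaving out the cell with most Timp2 UMIs in each library gave 2656 and 502.

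Astrocyte-like cells also held Timp2 at 1038 (WT) and 1215 (Nuc1), in 108 of 108 and in 353 of 357 cells. These levels were 84.7% and 179% of the pooled collagen-rich level, below it in the WT library and above it in the Nuc1 library. Single clusters differed from the pool. The Nuc1 Actg2 and Penk cells, at 1215, stood level with the Nuc1 astrocyte-like cells. The WT Inmt and Cyp26b1 cells, at 746, stood below the WT astrocyte-like cells. The Inmt and Cyp26b1 cells had the lowest Timp2 of the collagen-rich clusters in both libraries, 746 and 297. WT oligodendrocyte-like cells had 128, with 30 of the 100 UMIs in 1 cell.

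Timp3 was highest in the Inmt and Cyp26b1 cells and in the Ttr and Gldn cells, whose library ranges overlapped. The Inmt and Cyp26b1 cells had 287 in the WT library, where 1 of 53 cells held 44 of the 200 UMIs, and 214 in the Nuc1 library. The Ttr and Gldn cells had 324 (152 UMIs, 39 of them in 1 cell) and 105 (55 UMIs, 14 of them in 1 cell). The Ccn3 and Rspo3 cells had 143 and 94.4, the Cldn11 and Thbd cells 141 and 78.9, the Actg2 and Penk cells 83.6 and 52.7 and the dividing cells 74.5 and 65.7. In both libraries, then, Timp3 was higher in the cells richest in Mmp2 than in any other collagen-rich cluster, the reverse of Timp2. Astrocyte-like cells had 95.8 and 37.7.

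Adamts1 was highest in the Ccn3 and Rspo3 cells, at 56.2 for WT (425 UMIs, interval 51.0 to 61.8) and 25.4 for Nuc1 (129 UMIs, 21.2 to 30.1). A UMI of it was found in 36.0% and 23.7% of these cells. The range of these cells over the libraries overlapped that of the Cldn11 and Thbd cells, which came next with the libraries pooled. Among Nuc1 cells the Ttr and Gldn cells came next, at 24.7 (13 UMIs, 13.2 to 42.3), with 19.2 (9 UMIs) for WT. In 1 Nuc1 cell there were 7 of these 13 UMIs. Without the cell with most UMIs, the Nuc1 level was 11.9, below the Cldn11 and Thbd cells. WT levels in the Cldn11 and Thbd, Inmt and Cyp26b1, dividing, and Actg2 and Penk cells were 31.6, 27.3, 20.8 and 20.2, and the Nuc1 levels were 18.0, 5.96, 5.78 and 7.65. Astrocyte-like cells had 5.64 and 4.61. The 49 WT oligodendrocyte-like cells had 23.1, with 18 UMIs in 11 cells, 6 of them in 1 cell. That is 71.5% (interval 42.2 to 113.7) of the collagen-rich level in a group that held 0.564% of the collagen genes' level. The 10 Nuc1 oligodendrocyte-like cells had 0 UMIs, which allows up to 28.1.

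Adamts5, a main aggrecan-cutting enzyme of cartilage, was rare. The Ccn3 and Rspo3 cells had 12.7 for WT (96 UMIs, interval 10.3 to 15.5) and 20.5 for Nuc1 (104 UMIs, 16.7 to 24.8), above the ranges of all the other groups with at least 20 cells. The Inmt and Cyp26b1 cells, richest in Mmp2, had 2 UMIs in 53 WT cells and 5 UMIs in 367 Nuc1 cells. Astrocyte-like cells had 8.46 (24 UMIs) and 4.83 (44 UMIs). Macrophage-like cells had 0 UMIs in both libraries, which allows up to 12.8 and 31.6.

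**Figure D2:**
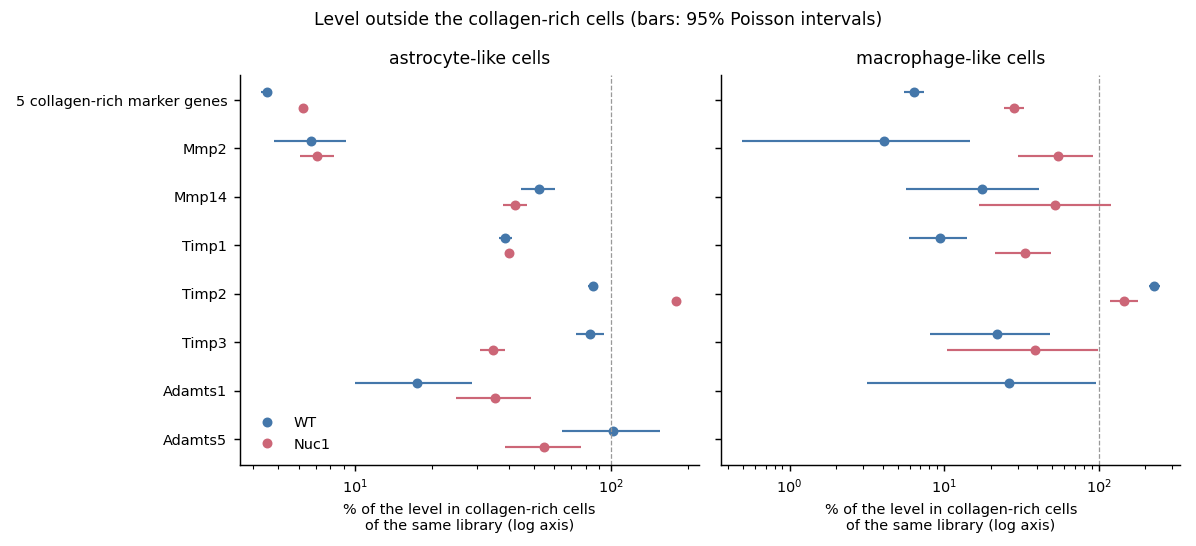
Level of each gene in astrocyte-like (left) and macrophage-like (right) cells as a percentage of its level in the collagen-rich cells of the same library (x axis, log scale), with WT in blue, Nuc1 in red and bars for 95% Poisson intervals, where a gene with 0 UMIs is not drawn. In astrocyte-like cells the 5 collagen marker genes lie at 4.51% and 6.25% and Mmp2 beside them at 6.74% and 7.11%, while Timp2 lies at 84.7% and 179%.

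Over the 18 values of cell group and library with at least 20 cells, Mmp14 and Timp1 ran most closely together among the members, with a Pearson correlation of 0.90 on the log2(CPM + 1) scale. Mmp2 correlated with Mmp14 at 0.85 and with Timp1 at 0.83, but with Timp2 at 0.16. The 18 values come from 2 libraries and 10 clusters and share depth and cell handling, so these describe likeness alone. Among 8466 genes with at least 500 UMIs, the 3 most like Mmp2 were Osr1 (0.96), Zfp575 (0.95) and Lamb1 (0.95), and the 3 most like Mmp14 were Fkbp10 (0.96), Ogn (0.95) and Clec2g (0.94). For Timp1 they were Efnb1 (0.97), Rcn3 (0.95) and Txndc5 (0.95). Timp2 was nearest to Hps1 (0.86), Anxa4 (0.85) and Gpx1 (0.84), and Timp3 to Frmd6 (0.91), Igfbp2 (0.88) and Angpt1 (0.87). Adamts1 was nearest to Nfil3 (0.95), LOC100910875 (0.89) and Pcdh7 (0.86), and Adamts5 to Epha3 (0.87), Fzd2 (0.84) and Nrp2 (0.82).

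The comparison of Nuc1 with WT cells was made within each cluster, as the log2 ratio of CPM. A gene is called higher or lower here when the ratio is at least 2-fold, its exact conditional interval excludes 0 and the gene has at least 100 UMIs in that group over both libraries. The share of all genes that meet this rule is given beside each count, since the members' counts can be read only against it.

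In the Ccn3 and Rspo3 cells, 2 of the 7 members with enough UMIs were lower in the Nuc1 library, against 4.11% of 7827 genes, and 0 were higher, against 1.98%. Timp2 went from 1310.1 (9903 UMIs) to 578 (2941 UMIs), a log2 ratio of -1.18 (interval -1.24 to -1.12). Adamts1 went from 56.2 to 25.4, a log2 ratio of -1.15 (-1.44 to -0.86). Timp1 (-0.64), Timp3 (-0.60), Mmp2 (-0.48) and Mmp14 (-0.25) were lower by less than 2-fold, and Adamts5 was higher at 0.69 (0.27 to 1.10). The median of the 7 was -0.60, against -0.02 over all genes tested.

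In the Actg2 and Penk cells, 1 of 6 members was lower, against 4.1% of 8169 genes, and 0 were higher, against 1.53%. It was again Adamts1, from 20.2 (214 UMIs) to 7.65 (37 UMIs), a log2 ratio of -1.40 (-1.95 to -0.89). Here Timp1 (-0.08) and Timp2 (-0.09) were nearly level between the libraries, and Mmp2 was slightly higher in Nuc1 at 0.19 (0.09 to 0.28).

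In the Cldn11 and Thbd cells, 0 of 7 members were called, against 3.55% of 7653 genes lower and 1.89% higher. Timp3 (-0.84), Timp2 (-0.83) and Adamts1 (-0.81) were all lower by less than 2-fold, and Adamts5 stood at 0.64 (0.05 to 1.22). In the dividing cells 0 of 5 were called, against 2.54% of 6374 genes lower and 1.32% higher, with Timp1 at -0.65 and Timp2 at -0.47. Adamts1 in dividing cells went from 80 WT UMIs to 14 Nuc1 UMIs, at -1.85 (-2.78 to -1.02), but with under 100 UMIs it could not be called.

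In the Inmt and Cyp26b1 cells, 1 of 5 members was lower, against 2.25% of 6455 genes, and 0 were higher, against 3.44%. Timp2 went from 746 (520 UMIs) to 297 (1692 UMIs), a log2 ratio of -1.33 (-1.47 to -1.19). In 1 WT cell there were 88 of the 520 UMIs, and without the cell with most UMIs in each library the ratio was -1.12 (-1.28 to -0.97). Mmp2 moved the other way, from 352 to 526, at 0.58 (0.39 to 0.78), while Timp1 was lower at -0.86 (-0.96 to -0.77). This cluster was 2.7% of the WT cells and 20.6% of the Nuc1 cells, and a cluster mostly from 1 library may reflect that library.

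Taken as a single group, the collagen-rich cells had 1 of 7 members lower, against 3.75% of 10339 genes, and 0 higher, against 4.48%. Adamts1 was at 32.3 for WT (939 UMIs) and 13.1 for Nuc1 (297 UMIs), which is -1.30 as a log2 ratio (-1.49 to -1.11), and it lay below 0 in each of the 5 clusters. Timp2 was at 1225 and 678, a log2 ratio of -0.85 (-0.88 to -0.83), which was below 0 in each of the 5 clusters too. Mmp2 was at 209 and 269, a log2 ratio of 0.36 (0.31 to 0.41), but the clusters differed in sign. It was above 0 in the Inmt and Cyp26b1 cells (0.58) and the Actg2 and Penk cells (0.19). It was below 0 in the Ccn3 and Rspo3 (-0.48), Cldn11 and Thbd (-0.32) and dividing cells (-0.07). Without the Inmt and Cyp26b1 cells, an alternative added after the data were seen, the pooled Mmp2 ratio was -0.18 (-0.24 to -0.11). In the same way Timp3 was at -0.08 (-0.15 to -0.00) with these cells and at -0.58 (-0.68 to -0.49) without them.

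**Figure D3:**
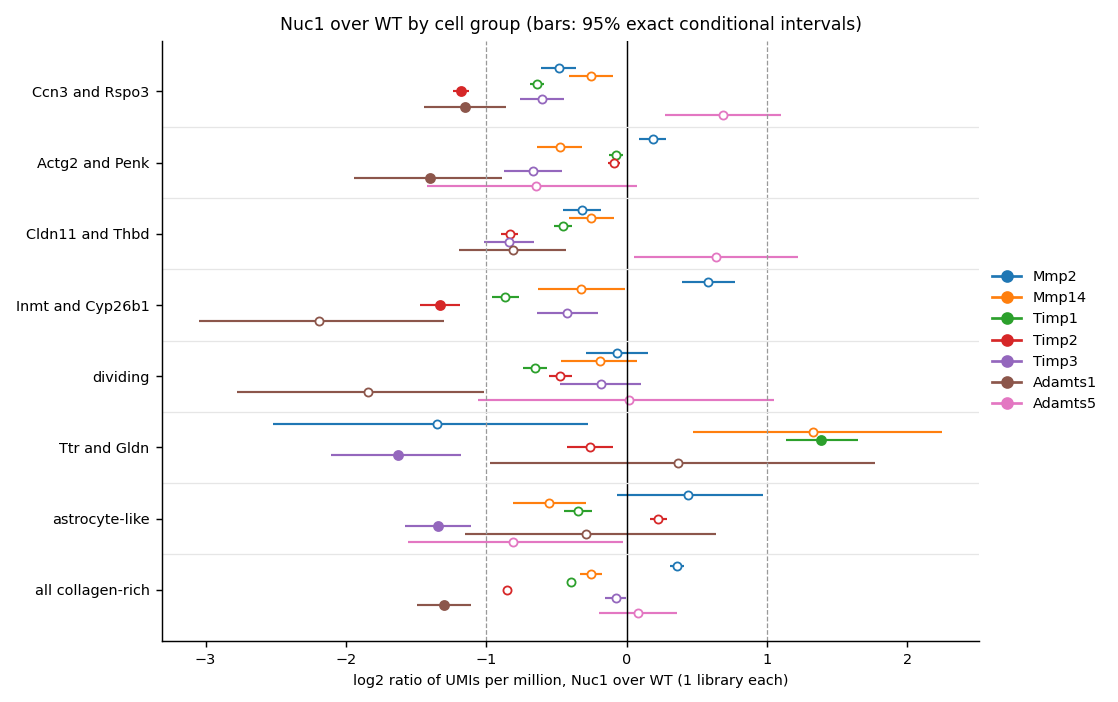
Log2 ratio of CPM, Nuc1 over WT (x axis, dashed lines at 2-fold), of the 7 detected genes in 7 cell groups and in all collagen-rich cells (y axis), with bars for 95% exact conditional intervals and filled points for genes called higher or lower. Timp2 is filled in the Ccn3 and Rspo3 cells (-1.18) and the Inmt and Cyp26b1 cells (-1.33), and Timp3 is filled in the astrocyte-like cells (-1.34) and the Ttr and Gldn cells (-1.63).

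Astrocyte-like cells differed in which inhibitor was lower. Of 5 members with enough UMIs 1 was lower, against 4.21% of 7656 genes, and 0 were higher, against 2.04%. It was Timp3, from 95.8 (272 UMIs in 108 cells, interval 84.8 to 108) to 37.7 (344 UMIs in 357 cells, 33.8 to 41.9), a log2 ratio of -1.34 (-1.58 to -1.11). Among astrocyte-like cells 53.7% (WT) and 43.1% (Nuc1) had a Timp3 UMI, and 34.0% (25.0 to 43.8) and 23.7% (19.3 to 28.7) had 1 after thinning to 10000 UMIs per cell, so that its level differed more than its share of cells. In WT oligodendrocyte-like cells the thinned share was 24.3% (11.8 to 41.2), so the Nuc1 share was not above that of another cell type. In the cells left after those rich in fibroblast genes were removed, the levels were 93.9 and 33.04. The astrocyte-like cells of the libraries also differed in division genes, 8 of which summed to 419 CPM in WT and 59.1 in Nuc1. The part of this in the Timp3 ratio was not tested. Timp2 was not lower here but slightly higher, at 0.23 (0.17 to 0.29), and Mmp14 (-0.55) and Timp1 (-0.34) were lower by less than 2-fold. The median over all genes tested in these cells was -0.11. With TMM scaling, which moved every ratio in astrocyte-like cells by 0.17, Timp3 was at -1.18 and Timp2 at 0.40.

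The Ttr and Gldn cells, with 22 and 25 cells, had 1 of 3 members higher, against 3.12% of 1568 genes, and 1 lower, against 5.23%. Timp1 went from 362 (170 UMIs) to 949 (499 UMIs), a log2 ratio of 1.39 (1.14 to 1.65), and Timp3 from 324 to 105, a log2 ratio of -1.63 (-2.10 to -1.18). A single Nuc1 cell held 151 of the 499 Timp1 UMIs. Without the cell with most UMIs of the gene in each library, Timp1 was at 1.202 and Timp3 at -1.65.

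Not every cluster was found again under other settings. When the 9 genes and the wider list took no part in clustering, the clusters that carried these calls were found. In clusters that again had the same leading genes, Timp2 was then at -1.10 in the Ccn3 and Rspo3 cells and at -1.34 in the Inmt and Cyp26b1 cells, Adamts1 at -1.27 and -1.34 in the Ccn3 and Rspo3 cells and the Actg2 and Penk cells, and Timp3 at -1.32 in astrocyte-like cells. With at most 10% mitochondrial UMIs per cell there were no Actg2 and Penk cells, Adamts1 in the Ccn3 and Rspo3 cells was at -0.96 and no longer called, and Timp1 in the Inmt and Cyp26b1 cells was called, at -1.002. With the libraries merged without integration there were no Ccn3 and Rspo3 cells. Timp2 in the Actg2 and Penk cells was then at 0.16 (0.11 to 0.22), and Timp3 in these cells was called, at -1.64 (-2.02 to -1.28), with 95 Nuc1 cells in the cluster.

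Inhibitor and enzyme were also set against each other as the UMIs of the 3 TIMPs per UMI of the 4 Mmp genes, of which Mmp2 and Mmp14 supplied all but 1. Capture differs between genes, so the ratio has no absolute meaning and only its change between groups or libraries was read. In the collagen-rich cells it was 7.22 for WT and 4.27 for Nuc1, a log2 change of -0.76 (interval -0.80 to -0.71). By cluster it went from 8.38 to 6.01 in the Ccn3 and Rspo3 cells, from 6.27 to 5.86 in the Actg2 and Penk cells, from 6.66 to 5.12 in the Cldn11 and Thbd cells, from 5.25 to 2.14 in the Inmt and Cyp26b1 cells and from 10.8 to 8.06 in the dividing cells. All 5 were lower in the Nuc1 library, with log2 changes between -1.30 and -0.10. Without the Inmt and Cyp26b1 cells the collagen-rich change was -0.30 (-0.36 to -0.25).

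**Figure D4:**
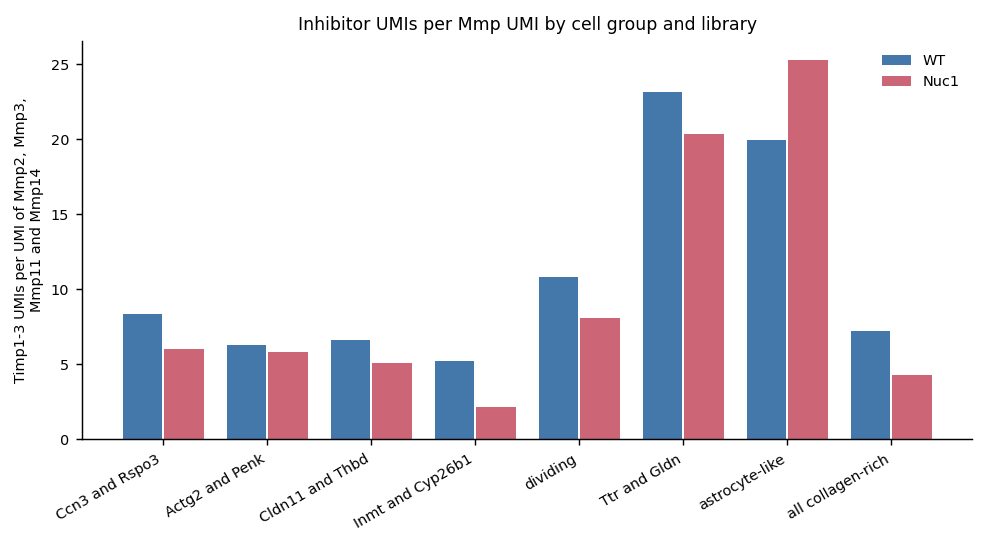
UMIs of Timp1, Timp2 and Timp3 per UMI of Mmp2, Mmp3, Mmp11 and Mmp14 (y axis, from 0) in each cell group with at least 20 UMIs of the Mmp genes in both libraries (x axis), with WT in blue and Nuc1 in red, 1 library each. The bar falls to 2.14 in Nuc1 Inmt and Cyp26b1 cells and stands at 19.9 (WT) and 25.3 (Nuc1) in astrocyte-like cells.

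Astrocyte-like cells had 19.9 (WT) and 25.3 (Nuc1) TIMP UMIs per Mmp UMI, a log2 change of 0.34 (0.11 to 0.58). This family ratio moved in the other direction from the collagen-rich cells, but Mmp14 supplied 179 of the 219 WT and 392 of the 566 Nuc1 Mmp UMIs. Timp2 per Mmp14 there was 16.5 and 28.25. Against Mmp2, with 40 WT UMIs, the astrocyte-like ratios were lower in Nuc1, as in the collagen-rich cells. Timp2 per Mmp2 was 73.65 and 63.65, and Timp1 per Mmp2 was 28.6 and 16.65. In collagen-rich clusters Timp2 per Mmp2 was 6.45 and 3.98 in the Ccn3 and Rspo3 cells and 2.12 and 0.564 in the Inmt and Cyp26b1 cells. Whether the change differs between groups was not tested, as there is 1 library per genotype.

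The other genes of matrix proteolysis, a list of 80 of which 77 are in the table, were treated by the same rule. In collagen-rich cells 8 of the 48 with enough UMIs were higher in the Nuc1 library and 6 were lower, against the same 4.48% and 3.75% of all genes, with a median log2 ratio of -0.15. Within clusters, lower calls outnumbered higher ones in all 5. In the Ccn3 and Rspo3 cells 7 of 32 genes were lower and 4 higher, against 4.11% and 1.98% of all genes. In the Actg2 and Penk cells 6 of 34 were lower and 2 higher, against 4.1% and 1.53%. In the Cldn11 and Thbd cells these were 7 and 2 of 31, against 3.55% and 1.89%. In the Inmt and Cyp26b1 cells they were 6 and 2 of 30, against 2.25% and 3.44%. In the dividing cells they were 3 and 2 of 28, against 2.54% and 1.32%. Over all genes, too, lower calls outnumbered higher ones in each of these clusters except the Inmt and Cyp26b1 cells. Among the proteases in the pooled cells, Adamts12 was higher at 62.5 and 193 CPM (log2 ratio 1.62), Mmp23 at 5.68 and 22.7 (2.003), Mmp13, or collagenase-3, at 1.79 and 7.07 (1.98), Mmp19 at 2.13 and 5.34 (1.32) and Adamts15 at 5.30 and 12.1 (1.19). Among single clusters Mmp13 was called higher in the Actg2 and Penk cells alone, Adamts12 and Adamts15 in the Ccn3 and Rspo3 cells alone, and Mmp19 and Mmp23 in none. Most Nuc1 Mmp23 UMIs came from the Inmt and Cyp26b1 cells, where it was at 90.4 and 82.1 (-0.14, interval -0.52 to 0.26). The protease Tll1, which trims procollagen, was lower in the pooled cells (-1.28) and was called in no single cluster.

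Among further inhibitors, A2m, a broad trap of proteases, had 129 UMIs in WT and 1371 in Nuc1 collagen-rich cells, a log2 ratio of 3.77 (3.51 to 4.04). Timp4 had 38 and 188 UMIs (2.67), and Serping1, the inhibitor of complement C1, was at 43.5 and 174 CPM (1.999). Tfpi2 had 197 and 16 UMIs (-3.26). A2m was called higher in each of the 5 collagen-rich clusters. Serping1 was called higher in the Ccn3 and Rspo3, Cldn11 and Thbd, and dividing cells, and Timp4 in the Inmt and Cyp26b1 cells alone, from 2 WT and 177 Nuc1 UMIs. In astrocyte-like cells A2m was at 55.0 (WT) and 100.9 (Nuc1) CPM, Serping1 at 80.7 and 153 and Timp4 at 10.2 and 14.2. The 9 astrocyte markers summed to 653.5 CPM in WT and 801.7 in Nuc1 collagen-rich cells, and 4564 and 15650 over all cells, and their part in these values was not tested. The Adamts-like genes Adamtsl3 (-1.998) and Adamtsl4 (-1.22) and the hyaluronan receptor Cd44 (-1.06) were lower in the pooled collagen-rich cells. Among single clusters Cd44 was called lower in the Cldn11 and Thbd cells alone.

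Versican (Vcan), a substrate of Adamts1 and Adamts5, was also lower in the pooled collagen-rich cells, from 211 to 78.4 (-1.43, interval -1.51 to -1.35). Among single clusters it was called lower in the Ccn3 and Rspo3 (-2.095), Cldn11 and Thbd (-1.75) and Actg2 and Penk cells (-1.04). It was not called in the dividing cells (-0.87) or the Inmt and Cyp26b1 cells (-0.0035). In astrocyte-like cells 4 of 26 genes were lower and 0 higher, against 4.21% and 2.04%, namely Adamts9 (-1.59), Adamtsl3 (-2.05), Vcan (-1.11) and neurocan, Ncan (-1.41). The 5 genes of the list with the highest levels in collagen-rich cells, Bsg, Serpinf1, Serpine2, Pcolce and Ctsk, had log2 ratios of 0.41, -0.24, 0.36, -0.10 and -0.25, none of them called.

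Genes known to rise when cells are taken apart by enzymes also differed between the libraries. Of the 15 measured genes of that list, 6 were lower in Nuc1 collagen-rich cells (Fosb, Atf3, Btg2, Nr4a1, Zfp36 and Klf4) against 3.75% of all genes, and 9 in Nuc1 astrocyte-like cells, against 4.21%. The median log2 ratios were -0.87 and -1.22. Their part in the lower Timp1, Timp2, Timp3 and Adamts1 was not tested. The 5 collagen-rich marker genes differed as well, with 3 of them (Col1a2, Dcn and Lum) lower in Nuc1 collagen-rich cells, against 3.75%, 0 higher, against 4.48%, and a median log2 ratio of -1.16.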

How the data were processed

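The deposited files hold unnormalized UMI counts of every gene in every cell barcode, for 1 WT and 1 Nuc1 library of droplet single-cell RNA-seq, made by the authors with Cell Ranger. The submitters' processing notes name Cell Ranger 3.1.0, STAR 2.7 and Seurat 3.1.0 and 3.1.1, and the genome build is not given in the sources used here. The tables held 2107 (WT) and 1929 (Nuc1) barcodes, of which 2 barcode sequences occurred in both. Barcodes under 500 genes or over 20% mitochondrial UMIs were left out, which kept 1968 and 1793, and Scrublet in scanpy 1.11.5, with an expected share of 2%, marked 7 and 13 doublets that were left out, a share under 0.5% in the WT library, so doublets can remain. Median depth of the kept cells was 14050 and 16567.5 UMIs. The libraries were integrated by anchors and clustered in Seurat 5.3.0 (R 4.3.3) with 2000 variable genes, 30 principal components and a resolution of 0.5. Clusters were described by their leading genes and named only with at least 3 markers of a type.

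UMIs were summed per cluster and library. Levels have exact Poisson intervals, shares of cells exact Clopper-Pearson intervals, and ratios exact conditional intervals (scipy 1.17.1), which cover counting error alone. Ratios were formed with at least 20 cells in each library and at least 20 UMIs over both. With 1 library per genotype no test was run. The ratio of TIMP to Mmp UMIs, scaling by TMM (edgeR 4.0.16) or to the median gene, other filters and clusterings, and thinning to 10000 UMIs were also computed. The interval functions were run on simulated Poisson counts, the model they assume, so that run does not bear on variation between cells or libraries. All 9 genes were named, with the 3 genes most like each in level, and, of 80 other genes of matrix proteolysis, those called in collagen-rich or astrocyte-like cells and the 5 of highest level. The genes and lists were chosen with earlier results of these data known. Promoters came from RefSeq (GRCr8).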

Additional observations from a re-analysis of the deposited data

Results flagged for a closer look

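For 5 of the genes the ratio of Nuc1 to WT pointed in opposite directions in 2 cell groups, each with an interval that excluded 0. These differences between cell groups were not tested, since there is 1 library per genotype. Mmp2 was higher in the Inmt and Cyp26b1 cells of the Nuc1 library (log2 ratio 0.58) and lower in the Ttr and Gldn cells (-1.35), where it had 25 and 11 UMIs, 8 of the 11 in 1 cell. The latter was at -0.63 (-1.59 to 0.30) when the 9 genes took no part in clustering and at -0.89 (-1.87 to 0.05) with doublets kept, so that the interval included 0. Mmp14 was higher in the Ttr and Gldn cells (1.33, from 16 and 45 UMIs) and lower in astrocyte-like cells (-0.55). Timp1 was higher in macrophage-like cells (1.43, from 23 and 25 UMIs) and lower in the Inmt and Cyp26b1 cells (-0.86). The macrophage-like value was between 0.39 and 1.04 under the 4 other clusterings that had such cells, and the interval included 0 in 3 of them. In macrophage-like cells the 5 collagen marker genes also went from 716 to 1885 CPM, and the part of this in the Timp1 value was not tested. Timp2 was higher in astrocyte-like cells (0.23) and lower in macrophage-like cells (-1.504), where 1 Nuc1 cell held 54 of the 94 UMIs. Adamts5 was higher in the Ccn3 and Rspo3 cells (0.69, from 96 and 104 UMIs) and lower in astrocyte-like cells (-0.81, from 24 and 44 UMIs).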

How the results depend on the processing

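Over 15 alternatives planned and 2 added after the data were seen, 241 of 288 recomputed values lay within the counting interval of the reported one (counts within 1.5 times), 42 lay outside it and 5 turned the sign of a value whose interval excluded 0. Of values whose interval included 0, Adamts5 in collagen-rich cells was below 0 in 3 of 15 alternatives, and in astrocyte-like cells Adamts1 was above 0 in 2 of 14 and Mmp2 below 0 in 1 of 14. The count of 1 member lower and 0 higher in collagen-rich and in astrocyte-like cells held in every alternative run. The log2 change of TIMP per Mmp UMIs in collagen-rich cells, -0.76 as reported, was -0.88 with at most 10% mitochondrial UMIs, -0.84 at resolution 1.0, -0.93 without clustering, -0.87 after thinning, -0.91 as a mean over cells, -0.54 with equal weight for each cluster and -0.30 without the Inmt and Cyp26b1 cells. In collagen-rich cells Mmp2 changed sign to -0.021 with equal weight for each cluster and to -0.18 without the Inmt and Cyp26b1 cells, and Timp3 to 0.062 at resolution 1.0 and 0.11 without clustering. Adamts5 in astrocyte-like cells was at 0.61 with at most 10% mitochondrial UMIs, and Timp3 there was at -2.63. That setting called 29 WT cells astrocyte-like, of which 16 were among the 108 of the reported values, so these are not values of the same cells. Why these values changed was not tested. No paired analysis was possible because there is a single WT and a single Nuc1 library. Depth limits Adamts5, with 268 WT and 252 Nuc1 UMIs in all, more than the other genes for which ratios were formed.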
